A study of Rattus norvegicus with 14 samples.

Results

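Transcription start sites (TSSs) that were active in adult rat sciatic nerve and silent in both cultured Schwann cell models are described here. They were selected on their culture values: a TSS was taken when fewer than 2 of the 6 primary Schwann cell libraries and fewer than 2 of the 6 S16 libraries were above 1 RPM, the reads of a TSS per 1000000 reads of its library. The rule took 740 of 4993 candidate TSSs (14.8%). Another 134 candidates were silent in primary cells only, 378 were silent in S16 cells only, and 3741 were active in both models. Because the rule used the culture values, their low level is a description and not a finding, whereas the nerve values, the positions and the gene annotation were not used by it.

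All 4993 candidates lie within 1 kb of a peak of H3K4me3, a histone mark of active promoters, that overlaps a binding peak of the transcription factor SOX10 in sciatic nerve. Transcript 5′ ends were sequenced with Tn5Prime, a template-switching method in which each read starts at a captured RNA 5′ end, in 2 libraries from nerves of wild type adult rats (6 to 9 months old, 1 library per nerve). The primary rat Schwann cells were 3 libraries in control medium and 3 after treatment with 250 µM CPT-cAMP, a cell-permeable cAMP analog, for 3 days, both in medium with 5% FBS. Before that the cells had been expanded with 10 nM neuregulin and 2 µM forskolin, which raises cAMP itself, so that all 6 primary cultures share this history. The immortalized rat Schwann cell line S16 gave 2 libraries of the unmodified parental line and 4 of ΔSOX10 lines, grown in medium with 10% FBS, so that serum also differed between the culture models. Each ΔSOX10 line is 1 clone (1-1, 1-2, 2-1 and 2-2) with a frameshift in *Sox10* made by CRISPR/Cas9 with 1 of 2 guide RNAs. The primary cell libraries were run on a NovaSeq and all others on a HiSeq instrument, so that for the primary cells culture model and instrument cannot be told apart.

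Schwann cells ensheathe peripheral axons, and those around large axons wrap them in myelin. SOX10 is needed at each stage of that lineage, and together with EGR2 it drives genes of the myelin sheath. A myelinating Schwann cell in the nerve keeps this program in contact with an axon. In primary culture without axons, myelin genes fall to low levels unless cAMP is raised. The parental S16 line differs, and the authors describe it as expressing markers of myelinating cells. A nerve also holds fibroblasts, perineurial cells, vessels, macrophages and adipocytes, whose transcripts enter a bulk nerve library. Such cells are few or absent in a purified Schwann cell culture or a cell line. Some genes listed as their markers, such as *Col1a1* for fibroblasts, were nevertheless active in both culture models.

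The annotated promoters of 5 genes without any active candidate TSS in culture are shown as examples, chosen after their values were seen. *Igfbp6* and *Slc36a2* had the highest nerve levels of these genes, *Grb14* and *Tmod2* had no culture read, and *Prx* was the only marker of myelinating Schwann cells among them. The sequences are those of RefSeq on build GRCr8, each with 250 bases before the annotated gene start in lower case and the 50 bases from that start onward in capitals, 5′ to 3′ on the gene's strand. The Tn5Prime positions are on build rn5 and could not be placed on these sequences.
Igfbp6 (GRCr8 chr7:135154669-135154968, plus strand): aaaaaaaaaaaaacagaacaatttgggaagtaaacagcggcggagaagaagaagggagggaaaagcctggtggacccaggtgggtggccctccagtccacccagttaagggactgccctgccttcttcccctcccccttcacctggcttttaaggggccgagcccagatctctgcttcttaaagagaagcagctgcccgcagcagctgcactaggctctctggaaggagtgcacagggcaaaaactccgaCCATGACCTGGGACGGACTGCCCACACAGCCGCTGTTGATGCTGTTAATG
Slc36a2 (GRCr8 chr10:39806724-39807023, minus strand): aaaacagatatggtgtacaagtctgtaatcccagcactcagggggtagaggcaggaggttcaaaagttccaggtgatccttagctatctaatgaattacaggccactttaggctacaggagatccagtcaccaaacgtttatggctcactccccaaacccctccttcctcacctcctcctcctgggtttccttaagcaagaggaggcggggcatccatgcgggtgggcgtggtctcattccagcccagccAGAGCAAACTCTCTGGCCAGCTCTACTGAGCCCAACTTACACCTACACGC
Grb14 (GRCr8 chr3:70091872-70092171, minus strand): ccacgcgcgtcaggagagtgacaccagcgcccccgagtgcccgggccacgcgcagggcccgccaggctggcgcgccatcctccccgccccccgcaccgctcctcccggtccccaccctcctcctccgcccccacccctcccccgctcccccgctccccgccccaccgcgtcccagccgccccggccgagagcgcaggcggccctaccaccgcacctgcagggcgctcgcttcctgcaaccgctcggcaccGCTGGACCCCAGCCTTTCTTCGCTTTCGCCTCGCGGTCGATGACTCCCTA
Tmod2 (GRCr8 chr8:85232687-85232986, minus strand): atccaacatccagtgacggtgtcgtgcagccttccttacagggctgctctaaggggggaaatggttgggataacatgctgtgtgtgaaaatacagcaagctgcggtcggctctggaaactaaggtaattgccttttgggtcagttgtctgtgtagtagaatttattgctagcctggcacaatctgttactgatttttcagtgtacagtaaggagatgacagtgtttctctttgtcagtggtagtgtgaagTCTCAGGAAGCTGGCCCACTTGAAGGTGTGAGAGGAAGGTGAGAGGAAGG
Prx (GRCr8 chr1:91914171-91914470, plus strand): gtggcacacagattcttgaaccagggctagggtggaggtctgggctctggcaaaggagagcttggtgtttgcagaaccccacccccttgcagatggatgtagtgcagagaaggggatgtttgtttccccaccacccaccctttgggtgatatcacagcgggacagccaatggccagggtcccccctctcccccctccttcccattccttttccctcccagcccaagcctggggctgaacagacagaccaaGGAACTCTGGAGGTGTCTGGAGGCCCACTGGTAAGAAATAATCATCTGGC

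The Grb14 window held 37 CpG dinucleotides, whereas those of Igfbp6, Slc36a2, Tmod2 and Prx held 7, 5, 4 and 1. The letters ACAAAG, the core of a SOX site, were found on either strand only in the Tmod2 window, starting 22 bases before the annotated start, and TATAAA on the sense strand in none of these 5. Among all 33469 RefSeq promoters of this length, 18.8% held ACAAAG on either strand, 8.80% held TATAAA and the median CpG count was 7. Of the 114 genes whose every candidate TSS was silent, 79 had a RefSeq promoter, of which 10 (12.7%) held ACAAAG and 3 (3.8%) TATAAA, with a median of 20 CpGs. The 2152 promoters of genes without a silent TSS gave 12.2%, 3.86% and 22 for the same quantities. A match is a description of these letters only, and no site was tested.

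The targeted gene of the ΔSOX10 clones was checked first. The only candidate TSS of *Sox10* was at 90.7 and 77.5 RPM in the 2 parental S16 samples and between 0 and 0.114 RPM in the 4 clones. In nerve it was at 48.6 and 42.4 RPM. Library totals, recovered from what 1 read is worth in each library, ran from 29895599 to 79940274 reads, so that 1 RPM corresponded to between 29.9 and 79.9 reads. The silent TSSs together took 1.01% and 1.64% of the RPM of the candidate table in the nerves and between 0.0182% and 0.0380% in the 12 culture libraries. In bulk libraries fewer cells of a type and less RNA per cell cannot be told apart.

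Most silent TSSs were weak in nerve, and a few were strong. Their median nerve level (mean of 2 nerves) was 2.80 RPM, against 8.75 RPM for the other 4253 candidates. The median was 1.84 RPM in nerve 1 and 3.96 RPM in nerve 2, against 8.86 RPM in each nerve for the other candidates. Of the 740, 641 (86.6%, 95% Wilson interval 84.0 to 88.9%) were under 5 RPM, compared with 1394 of 4253 (32.8%) of the others. At the upper end 34 silent TSSs (4.59%) reached 10 RPM and 3 passed 50 RPM, whereas 1949 (45.8%) and 615 of the other candidates did so. The lowest nerve mean anywhere in the table was 1.82 RPM.

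**Figure D1:**
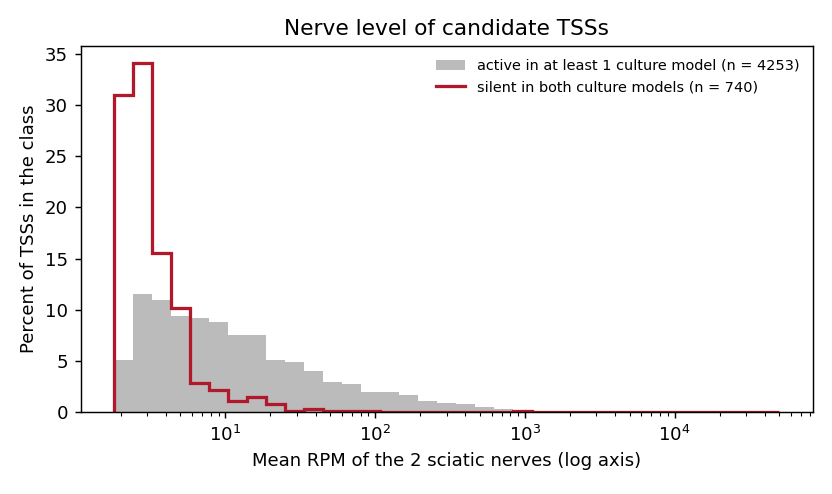
Percent of TSSs by mean RPM of the 2 sciatic nerves (log axis) for the 740 TSSs silent in both culture models (red line) and the 4253 candidates active in at least 1 model (grey). The silent TSSs pile up near the lower end of the table, with a median of 2.80 RPM against 8.75 RPM, and 1 of them lies above 1000 RPM.

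The number of reads behind the word silent varied. Summed over the 12 culture libraries, the silent TSSs had a median of 33 reads, an upper quartile of 125 and a maximum of 683. No read was found in any of the 12 culture libraries for 292 silent TSSs (39.5%). In the primary cell libraries alone 396 had no read, and in the S16 libraries alone 423 had none. These counts of 0 allow a level of up to 3 reads per library, that is between 0.0375 and 0.0855 RPM over the 12 libraries, and they cover counting error only.

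A further share of the 740 had a value in a single library. In primary cells 209 TSSs were above 1 RPM in exactly 1 library, and for 83 of them the other 5 primary libraries held no read at all. The median value of that library was 1.66 RPM and the highest 7.12 RPM. In S16 cells 155 TSSs were above 1 RPM in 1 library and 65 of these had no read in the other 5, with a median of 1.55 RPM and a highest value of 5.86 RPM. Each of the 12 libraries gave between 18 and 54 values above 1 RPM, and the median behind them was between 50.5 and 133 reads. With no library above 1 RPM allowed in either model, 445 TSSs met the rule.

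The edge of the rule ran through genes on both sides. Just inside it, TSSs of *Plekha4*, *Crip2* and *Smim10l1* had 0.999, 0.997 and 0.995 RPM as their second-highest value in a model. Just outside, TSSs of *Ppdpf* and *Malat1* had 1.01 and 1.02 RPM.

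The 2 nerves differed at many of these TSSs. Of the silent TSSs, 189 (25.5%) were at 0 RPM in 1 nerve, 168 of them in nerve 1 and 21 in nerve 2. Among the other candidates 105 (2.47%) were at 0 RPM in 1 nerve, 55 in nerve 1 and 50 in nerve 2. Among the 1394 other candidates under 5 RPM in nerve, 101 (7.25%) were at 0 RPM in 1 nerve, and among TSSs silent in primary cells only and in S16 cells only 19 of 134 (14.2%) and 31 of 378 (8.20%). The silent TSSs were higher in nerve 2 in 532 of 740 cases (71.9%), the others in 2174 of 4253 (51.1%), those silent in primary cells only in 65.7% and those silent in S16 cells only in 57.1%. Nerve 1 was the shallower library, with 29895599 reads against 38377828, and the part of depth in these counts was not tested.

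A level of 0 in 1 nerve stood beside clear reads in the other. No candidate had a nerve mean under 1.82 RPM, so that this was fixed in advance. In the nerve with reads, these 189 TSSs ranged from 3.65 to 13.4 RPM with a median of 4.72 RPM, and 106 of them had no read in any culture library. The highest was a TSS of *Sptan1*, which encodes the non-erythroid alpha spectrin of the membrane skeleton, at 13.4 RPM in nerve 2 and 0 RPM in nerve 1. It was followed by *Btbd6* (11.1 RPM), *Pigc* (9.04 RPM), *Arhgap31* (8.78 RPM) and *Sdk1* (8.05 RPM), all in nerve 2 only. The *Mal* TSS at chr3:127099124-127099151 was at 8.43 RPM in nerve 1 and 0 RPM in nerve 2. Both nerves were above 1 RPM at 458 silent TSSs (61.9%), compared with 3956 (93.0%) of the other candidates.

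**Figure D2:**
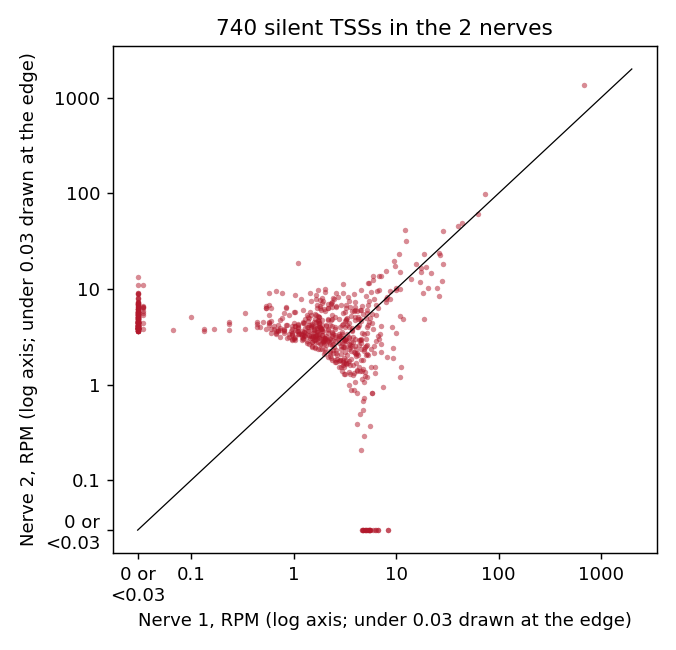
RPM of each of the 740 silent TSSs in nerve 1 (x axis) and nerve 2 (y axis), both on log axes, with equal values on the line and values under 0.03 RPM at the edge. The highest TSS is at 678 and 1372 RPM, whereas 168 TSSs sit at 0 RPM in nerve 1 and 21 at 0 RPM in nerve 2.

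The width and place of the silent TSSs are given beside those of the other classes. Their median width was 15 bp, counting both end bases, against 64 bp for the other candidates and 39.5 bp for other candidates under 5 RPM. Widths of at most 10 bp were found at 318 (43.0%) of them and at 509 (12%) of the others. They overlapped the H3K4me3 peak itself in 503 cases (68.0%) against 3912 (92.0%), and the SOX10 peak in 129 cases (17.4%) against 2451 (57.6%). For other candidates under 5 RPM these shares were 86.2% and 44.6%. The TSSs silent in primary cells only had a median width of 16 bp, 38.8% of at most 10 bp, and overlaps of 77.6% and 22.4%. Those silent in S16 cells only had 27.5 bp, 30.4%, 85.7% and 42.9% for the same quantities. The median gap to the listed SOX10 peak was 987 bp for the silent TSSs and 0 bp for the others. The table assigned the 740 to 475 of its 2885 H3K4me3 peaks, and at 138 of these peaks every candidate TSS was silent. These are descriptions of the table without a test, since TSSs of 1 gene or peak share their source.

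A gene symbol was given for 646 of the 740, from 404 genes of the 2993 in the table, and 94 had none. The question of whether such a gene has another TSS in use in culture divided the 404 genes into 3 classes. In 269 genes, with 472 of the silent TSSs, the main nerve TSS (the highest mean of 2 nerves) was active in culture and a secondary TSS was silent. In 114 genes every candidate TSS was silent, and 100 of these had a single candidate TSS. In 21 genes the main nerve TSS was silent while another TSS was active. Counted over TSSs, 497 of 646 (76.9%, 95% Wilson interval 73.5 to 80.0%) lay at a gene with another active TSS, against 1666 of 4052 (41.1%) of the other candidates and 643 of 1271 (50.6%) of those under 5 RPM. The share was 78.6% (99 of 126) for TSSs silent in primary cells only. For those silent in S16 cells only it was 72.5% (229 of 316), so that the share was not particular to TSSs silent in both. A TSS that is the only candidate of its gene cannot have another active TSS. Such TSSs were 15.5% (100 of 646) of the silent TSSs and 54.4% (2204 of 4052) of the other candidates. Among other candidates under 5 RPM they were 45.7% (581 of 1271). Where a gene has a silent TSS and a single active TSS, only the silent TSS is counted. The part of these limits in the contrast was not tested.

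The highest silent TSSs of the first class were those of *Pla2g16*, *Ncmap*, *Fxyd1*, *Pmp22* and *Cers2*. *Ncmap*, which encodes a protein of non-compact myelin, had a silent TSS at chr5:157505777-157505837 with 40.0 RPM in nerve 1 and 45.2 RPM in nerve 2. Of the 12 culture libraries only cAMP replicate 1 held reads there, at 1.04 RPM. The main *Ncmap* TSS was at 1399 and 1152 RPM in the nerves, but its culture group means were 0 RPM in control cells, 1.67 RPM with cAMP, 0.662 RPM in parental S16 and 0 RPM in ΔSOX10 S16, so that it too was barely in use.

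At *Pmp22*, the gene of a major compact myelin protein, 9 of 22 candidate TSSs were silent. The highest of them, chr10:49317121-49317122, was at 12.1 and 41.8 RPM in the nerves and had no read in any culture library. It lay 110.5 bp downstream of the main TSS, which had 34274 and 38188 RPM in the nerves. In culture that main TSS averaged 1.29 RPM in control primary cells, 19.5 RPM with cAMP, 524 RPM in parental S16 and 0.743 RPM in ΔSOX10 S16. The 9 silent TSSs made up 0.228% of the gene's nerve RPM.

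*Pla2g16*, a phospholipase and acyltransferase of fat and other tissues, had 7 silent TSSs among 8. The highest was at 62.6 and 61.1 RPM in the nerves, 3.27 RPM in cAMP replicate 3, 0.285 RPM in ΔSOX10 clone 2-2 and 0 RPM in the remaining 10 culture libraries. Its single active TSS was at 386 RPM in nerve, 2.08 RPM in control cultures, 1.99 RPM under cAMP, 1.67 RPM in parental S16 and 26.3 RPM in ΔSOX10 S16.

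Other genes of this class kept a main TSS at a high level in culture. *Cers2*, the ceramide synthase for very long acyl chains, had a silent TSS at 26.2 and 23.6 RPM in the nerves, 3291.5 bp downstream of a main TSS that averaged 115 RPM in nerve, 159 RPM in primary control cultures, 157 RPM under cAMP and 118 RPM in parental S16. The silent TSS was at 1.5 RPM in cAMP replicate 1 and 1.42 RPM in parental replicate 1. *Vamp8*, *Crip2* and *Fth1* (a ferritin gene with many processed copies, whose reads are uncertain) likewise combined a silent TSS of 9.17, 10.1 and 7.84 RPM in nerve with a main TSS of at least 100 RPM in each culture group.

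The FXYD genes encode small membrane proteins that modulate the sodium pump, and 3 of them were among the 20 genes with the highest silent TSSs. *Fxyd1* (phospholemman) had 10 silent TSSs of 13, the highest at 28.7 and 40.3 RPM in the nerves, 129.5 bp upstream of a main TSS at 660 RPM. *Fxyd6* had a silent TSS at 15.5 and 18.1 RPM, 169.5 bp upstream of a main TSS at 401 RPM in nerve and 44.0 RPM on average with cAMP. Both candidate TSSs of *Fxyd2*, the gamma subunit of the pump, were silent, at 18.7 and 23.5 RPM for the main one. In culture the latter had reads in cAMP replicate 3 alone, at 1.92 RPM.

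*Dnajc7*, a co-chaperone, and *Mgll*, which encodes monoacylglycerol lipase, complete the leading genes of this class. The *Dnajc7* TSS was at 9.73 and 17.4 RPM in the nerves and at 1.54 RPM in control replicate 3. The *Mgll* TSS was at 6.82 and 13.7 RPM in the nerves, with 1.98 RPM in control replicate 3 and 2.36 RPM in parental replicate 2.

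Over all 290 genes that had a silent and an active TSS, the active one (the highest in nerve) had a median of 24.6 RPM in nerve and a median of 45.4 RPM in its highest culture group. It was active in both models in 258 genes, in primary cells only in 24 and in S16 cells only in 8. In 213 genes its highest culture mean was above its nerve mean, and in 8 genes it was under 10% of it. In 45 genes it stayed under 5 RPM in each culture group, so that an active TSS in the sense of the rule was not always a strong one.

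Most secondary silent TSSs lay downstream of the gene's main TSS. Of 511 that were not the main TSS, 429 (84.0%) lay downstream, against 913 of 1194 (76.5%) of the other secondary TSSs. Over 1000 bp away lay 317 (62.0%) against 612 (51.3%), with median distances of 1382 and 1057 bp. Under 10% of the gene's nerve RPM was held by 349 (68.3%) against 859 (71.9%). Whether these captured 5′ ends are sites where transcription starts was not tested. An active TSS in the same H3K4me3 peak was found for 563 of the 740 (76.1%), against 52.5% of the other candidates, 81.3% of the TSSs silent in primary cells only and 71.2% of those silent in S16 cells only.

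A few genes held many silent TSSs. The noncoding nuclear RNAs *Malat1* and *Neat1* had 39 of 66 and 20 of 39, *Igfbp6* 20 of 20, *Txnip*, an inhibitor of thioredoxin, 11 of 14, and *Fxyd1* and the heat shock gene *Hspa2* 10 each. At *Malat1* and *Neat1* these were short (median width 3 bp) and low beside the main TSSs: the highest silent *Malat1* TSS was at 17.2 and 11.8 RPM in the nerves, whereas the main TSS averaged 13428 RPM. Only 5 of the 39 *Malat1* TSSs and 2 of the 20 *Neat1* TSSs had no read in any culture library, and 19 and 9 of them were above 1 RPM in 1 primary library. At *Igfbp6*, by contrast, 16 of 20 had no culture read.

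*Igfbp6*, which encodes a binding protein of insulin-like growth factors with preference for IGF-II, had by far the highest silent TSS. The TSS at chr7:141546158-141546197 was at 678 RPM in nerve 1 and 1372 RPM in nerve 2 (mean 1025). Among the 12 culture libraries, control replicate 1 was at 0.0175 RPM (1 read), parental replicate 2 at 1.92 RPM, and the other 10 at 0 RPM. All of its 20 candidate TSSs were silent, and together they made up 31.0% of the summed nerve RPM of the 740.

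The *Igfbp6* TSSs fell into 2 clusters. The first held 14 TSSs from 145.5 bp upstream to 338 bp downstream of the main TSS, with a sum of 743 RPM in nerve 1 and 1461 RPM in nerve 2. The second held 6 TSSs between 2785 and 3139 bp downstream, with sums of 124 and 155 RPM, led by chr7:141549207-141549301 at 73.8 and 99.0 RPM. The main TSS made up most of the first cluster, and the 2 nerves were closer at the second cluster than at the first. None of the 20 overlapped the SOX10 peak listed for it.

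**Figure D3:**
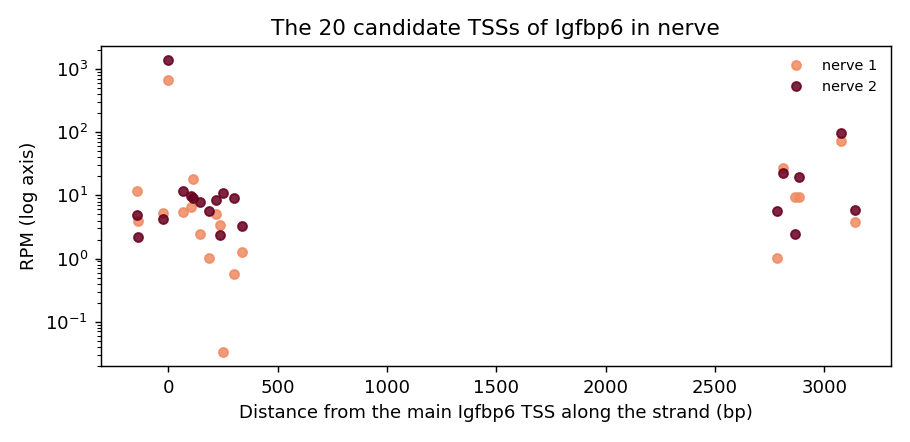
RPM (log axis) in nerve 1 and nerve 2 of the 20 candidate TSSs of Igfbp6, by distance in bp from the main TSS along the strand. The main TSS stands at 678 and 1372 RPM, and a second cluster of 6 TSSs lies from 2785 bp downstream, where the highest is at 73.8 and 99.0 RPM.

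The other wholly silent genes were all under 50 RPM in nerve. Of the 114, 20 reached 5 RPM and 10 reached 10 RPM. *Slc36a2*, a proton-coupled transporter of small amino acids, had a single candidate TSS at chr10:40363527-40363672 with 44.4 and 49.1 RPM in the nerves. In culture it had 0.65 RPM in cAMP replicate 1 and 1.8 RPM in cAMP replicate 2 and no read in the other 10 libraries. *Magi2*, a membrane scaffold protein, was at 19.6 and 16.9 RPM in nerve, and its culture reads were in the cAMP-treated libraries, at 0.125, 0.125 and 0.631 RPM. Neither gene was called between cAMP and control in limma (adjusted p = 0.307 for *Slc36a2* and 0.443 for *Magi2*).

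*Grb14*, an adaptor that binds the insulin receptor, was at 25.3 and 10.3 RPM in the nerves, and *Foxs1*, a forkhead transcription factor, at 10.7 and 23.0 RPM. Neither had a read in any of the 12 culture libraries. The same held for *Tmod2*, a tropomodulin that caps actin filaments (14.1 and 12.8 RPM), *Mmp23*, a membrane-bound metalloproteinase (11 and 14.9 RPM), and *Cdh11*, a mesenchymal cadherin (5.65 and 9.38 RPM). *Evi5*, a regulator of Rab11, was at 17.4 and 16.5 RPM in nerve and at 2.03 and 0.22 RPM in cAMP replicates 1 and 3. *Pla2g5*, a secreted phospholipase, was at 7.16 and 13.7 RPM in nerve and at 3.55 RPM in parental replicate 2.

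**Figure D4:**
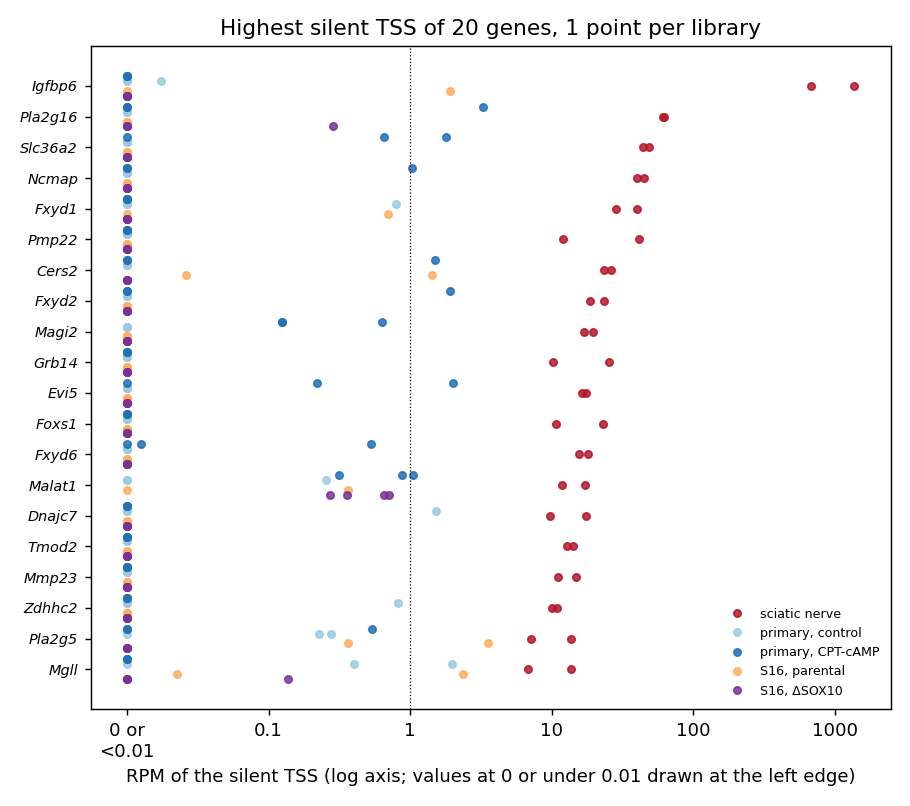
RPM (log axis) of the highest silent TSS of the 20 genes with the highest nerve levels, with 1 point per library coloured by group, values at 0 or under 0.01 RPM at the left edge and the 1 RPM threshold dotted. Nerve values run from 6.82 RPM (Mgll) to 1372 RPM (Igfbp6), and culture values above 1 RPM appear in at most 1 library of each model.

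In the 21 genes whose main nerve TSS was silent while another was active, both TSSs were low. *Zdhhc2*, a palmitoyltransferase, led them: its silent TSS was at 10.9 and 10.1 RPM in the nerves and 0.817 RPM in control replicate 3, and its active TSS at 5.92 and 1.82 RPM in the nerves and between 0.712 and 4.66 RPM in the culture group means. *Arap1*, a GTPase-activating protein, had 8.73 and 7.79 RPM at the silent and 1.71 and 2.66 RPM at the active TSS in nerve. These differences rest on 2 nerves, and no test was made.

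For *Sptan1* the order of the TSSs differed between the nerves: the silent TSS was at 0 and 13.4 RPM, and the active one at 11.1 and 2.29 RPM in nerve and 21.4 RPM in control cells. *Gpsm3*, *Thra* (a thyroid hormone receptor), *Lysmd1*, *Shc4* and *Pea15* had silent main TSSs of 6.57, 6.01, 5.51, 5.12 and 4.84 RPM on average. Their active TSSs were between 2.17 and 4.78 RPM in nerve.

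The silent TSSs were also set beside marker genes of the cell types of a nerve. Of the 22 listed markers of myelinating Schwann cells, 14 were in the table and 10 held a silent TSS, 29 of 141 TSSs (20.6%). Only *Prx* (periaxin, which organises the outer Schwann cell membrane) was wholly silent: its TSSs at chr1:85525261-85525303 and chr1:85524713-85524732 were at 4.58 and 9.80 RPM and at 1.74 and 9.82 RPM in the nerves. A single culture library, cAMP replicate 3, held reads at the first, at 0.0733 RPM. In the remaining 13 markers, *Mbp* and *Mal* among them, the main TSS was active in at least 1 culture model. The list summed to 77262 and 78135 RPM in the nerves, to between 3463 and 3547 RPM in control and between 10983 and 12898 RPM in cAMP-treated primary cells, to 10162 and 10423 RPM in parental S16 and to between 189 and 464 RPM in the ΔSOX10 clones.

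Of 19 fibroblast markers 5 were in the table, and 3 of these (*Igfbp6*, *Clec3b* and *Pdgfra*) had only silent TSSs, 23 of the list's 32 TSSs. Of the 23, 20 were at *Igfbp6*, and without that gene 3 of 12 TSSs were silent, beside 14.8% of the table. The main TSS of *Clec3b*, which encodes tetranectin, was at 3.91 and 5.94 RPM in the nerves and had no culture read. *Pdgfra*, the receptor by which nerve fibroblasts are often sorted, was at 3.71 and 2.5 RPM in the nerves, between 0.674 and 1.29 RPM in parental S16 and 0.113 RPM on average with cAMP. The other 2, *Col1a1* and *Gsn*, were active in both models, at 857 and 120 RPM on average in control primary cells, whereas the nerves held 110 and 96.2 RPM of the first and 17.0 and 8.89 RPM of the second. The list summed to between 919 and 1027 RPM in control cells and between 2333 and 5555 RPM in S16 cells, against 1024 and 1778 RPM in the nerves.

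The other cell types were thinly covered by candidates. *Csf1r*, the receptor of macrophages, was the only one of 19 leukocyte markers in the table, and its single TSS was silent, at 4.82 and 1.07 RPM in the nerves. Of *Cfd* (adipsin, made by adipocytes) 3 of 4 TSSs were silent, and of *Itgb4*, present in perineurium and Schwann cells, 1 of 2. Of the markers of endothelium, mast cells, skeletal muscle and neurons none was in the table, and of 12 markers of pericytes and smooth muscle 2 were, with no silent TSS. What the other cells of the nerve contribute to the silent TSSs was not tested.

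Gene groups differed in how many of their TSSs were silent, beside 14.8% of the whole table. Of 141 TSSs at ribosomal protein genes 1 was silent (0.709%), and of 113 at mitochondrial protein genes 6 (5.31%). Genes of the node, paranode and axon contact had 11 of 26 silent, 6 of them at *Lgi4*, which encodes a secreted ligand of the receptor ADAM22, and 3 at the laminin receptor gene *Itga6*. In none of its 8 genes was the main TSS silent.

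Of 6 TSSs at ion channel and transporter genes 4 were silent, those of *Slc36a2* and *Abca8a* among them. Schwann cell transcription factors had 9 of 28 silent, 6 at *Maf*, of which the highest was at 5.82 and 4.4 RPM in the nerves. The lipid synthesis genes had 5 of 26 silent (19.2%), the immediate early genes 6 of 31 (19.4%) and the clock and glucocorticoid genes 2 of 9 (22.2%). Among these, the main nerve TSS was silent in *Jund* (2.31 and 7.19 RPM) and *Nr1d1* (3.98 and 5.08 RPM).

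The culture values of these TSSs were also set against cAMP treatment and the loss of SOX10, with limma on log2(RPM + 0.1). The fits covered all candidates above 0.1 RPM in at least 2 of the 6 libraries of a comparison. The rule used the same libraries and caps all but 1 of each model at 1 RPM, so that the counts of calls below are a description from which nothing is read about the silent TSSs. With cAMP, 148 of the 740 could be tested and none was called higher or lower at an adjusted p under 0.05, whereas 11.1% of the 4330 TSSs tested were called higher and 9.61% lower. At an unadjusted p under 0.05, 5 silent TSSs were higher and 1 lower with limma. On recovered reads, edgeR called none and DESeq2 called 8 higher and 4 lower.

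Of the 148, 22 were above 0.1 RPM in no cAMP library and 37 in no control library, having passed the filter through the other group alone. The *Arf6* TSS (a small GTPase of membrane traffic) was at 0.788, 4.02 and 0.603 RPM in the 3 control libraries and 0 RPM in the 3 cAMP libraries. The value of control replicate 2 was several times that of the other controls. In nerve this TSS was at 3.41 and 8.29 RPM. The *Aatk* TSS was at 0, 0.0611 and 0 RPM in control and 0.763, 0.927 and 1.06 RPM with cAMP.

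In ΔSOX10 against parental S16 cells, 136 of the 740 were tested, and 7 were called lower (5.15% of those tested) and none higher. Among all 4204 TSSs tested 5.97% were called lower and 1.4% higher. The median log2 change of all TSSs tested was -0.21 on RPM and -0.07 under TMM or median-ratio scaling. At an unadjusted p under 0.05, 11 silent TSSs were lower and none higher in limma, DESeq2 called 3 lower and edgeR none. With any 1 of the 6 libraries left out, no silent TSS was called in limma. Without a parental sample the 7 did not pass the filter, so that there they could not be called. The 2 parental samples are of 1 line and the clones of 2 guides, and in both comparisons the p-values measure only the spread between these samples.

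Of the 136, 9 were above 0.1 RPM in no clone and 38 in no parental sample. The 7 called TSSs were among the 9: they had reads in both parental samples and none in any of the 4 clones, and having passed the filter through the parental samples alone they could only be lower. *Lgi4* (chr1:90646963-90646966) was at 2.58 and 0.726 RPM in parental S16, *Entpd2*, an ectonucleotidase of glia, at 3.12 and 0.622 RPM, and *Cmtm5*, a membrane protein of myelinating glia, at 1.31 and 0.726 RPM. *Paqr4* was at 2.22 and 0.648 RPM, *Gamt*, a methyltransferase of creatine synthesis, at 0.814 and 0.959 RPM, *Dnlz* at 0.497 and 0.804 RPM and *Fut11*, a fucosyltransferase, at 0.588 and 0.570 RPM. These values are a description, since they also chose the TSSs.

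At 5 of these genes another TSS was active, outside the 740, and it was tested in the same fit. The genes were picked by calls in the same libraries, so that these values and p-values are a description and no separate support. The active *Lgi4* TSS was at 15.5 and 14.2 RPM in parental S16 and at most 0.0254 RPM in the clones, a log2 change of -7.14 ± 0.67 (SE, adjusted p = 9.38e-04, limma). The active *Cmtm5* TSS, at 93.7 and 86.7 RPM in the parental samples and at most 0.0764 RPM in the clones, changed by -9.53 ± 0.66 (adjusted p = 5.35e-04, limma). *Entpd2* fell from 1680 and 1520 RPM to between 11.1 and 169 RPM (adjusted p = 0.0135, limma). For *Gamt* (-1.23 ± 0.29, adjusted p = 0.0501) and *Fut11* (-0.90 ± 1.49, adjusted p = 0.800) limma gave no call.

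**Figure D5:**
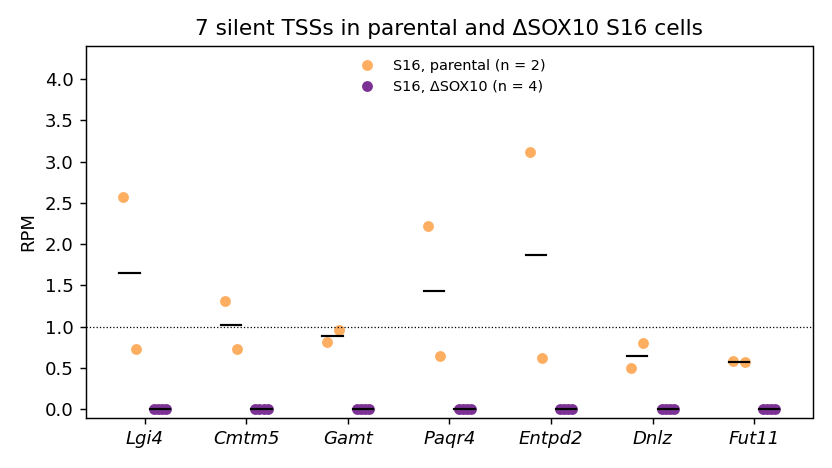
RPM in the 2 parental S16 samples (orange) and the 4 ΔSOX10 clones (purple) of the 7 silent TSSs called lower, with the mean as a black bar and the 1 RPM threshold dotted. Every clone is at 0 RPM, and the parental values lie between 0.497 and 3.12 RPM.

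The active partner TSSs of the genes with a silent TSS carried calls of their own. Of 283 tested with cAMP, 59 (20.8%) were higher and 54 (19.1%) lower, beside 11.1% and 9.61% of the table. Of 277 tested in ΔSOX10 S16 cells, 7 (2.53%) were higher and 35 (12.6%) lower, beside 1.4% and 5.97%. The partners were chosen as the active TSS highest in nerve, with a median of 24.6 RPM there against 6.78 RPM for the whole table. These shares were not compared by a test, and the part of level in them was not tested.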

How the data were processed

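The values analysed are RPM per TSS and library in 14 Tn5Prime libraries, deposited by the authors, who trimmed reads with Cutadapt 1.14, mapped them to rn5 with STAR 2.5.2a, processed them with SAMtools 1.9, clustered read starts with Make_CTSS and Paraclu and counted them with featureCounts (Subread 1.6.1). Per the file headers, the deposited table also holds log2 fold changes and FDR-adjusted p-value columns of the authors' comparisons (edgeR 3.24.3), which were not used. TSS positions are as deposited. PCR copies are not told apart from separate molecules, and the floors therefore describe counting error alone. The intervals of shares treat each TSS as a separate draw, although TSSs of 1 gene or peak share their source. They do not measure the spread between nerves or cultures, and may be too narrow.

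The smallest step between RPM values in a library, 1 read, gave its total and whole reads. Of the values under 1000 reads, between 96.8% and 100% were whole within 0.1 read. The floor is 3 reads per library. Gene symbols are those of the table; 2896 of 2993 matched RefSeq (GRCr8).

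Each comparison (cAMP against control, 3 and 3 libraries; ΔSOX10 against parental, 4 and 2) was fitted over all candidates above 0.1 RPM in at least 2 libraries, with limma 3.58.1 in R 4.3.3 (lmFit, eBayes with trend) on log2(RPM + 0.1), 2-sided, with Benjamini-Hochberg adjustment over all TSSs tested and a threshold of 0.05. Fold changes are on this scale and understate those of low TSSs. The fits were tested on simulated reads, with the same dispersion assumed for every candidate. Silent TSSs with reads in a single library differ from that setting, so that the fits were not tested for them. Alternatives were count models on the recovered reads (DESeq2 1.42.0, edgeR 4.0.16) and other pseudocounts, filters, scalings, thresholds, each library left out and a replicate block. Same-numbered control and cAMP libraries did not deviate together (correlations 0.017, -0.015 and 0.052), so the numbers were not taken as pairs.

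The TSSs, gene lists and rules were chosen with earlier results of these data known. Named genes are the 20 with the highest silent TSS in nerve, the 5 with the largest called change per comparison and direction, leading genes of each class (8 with a silent main TSS, 6 with a silent secondary TSS, 6 silent TSSs at 0 RPM in 1 nerve, 5 with most silent TSSs), up to 4 per gene list at 5 RPM or more in nerve, and 3 on each side of the threshold; some of these are not reported here. Others named were chosen after their values were seen. Intervals of shares are Wilson intervals at 95%.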

Additional observations from a re-analysis of the deposited data

Results flagged for a closer look

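Of 6 quantities of the 4 ΔSOX10 clones that were examined with Dixon's ratio, 2 had 1 clone apart from the other 3, and chance flags about 1 group in 20. The silent *Pla2g16* TSS was at 0.285 RPM in clone 2-2 and at 0 RPM in the other 3. The silent *Mgll* TSS was at 0.137 RPM in clone 2-1 and at 0 RPM in the other 3. With 3 clones at 0 RPM any value in the fourth gives the highest possible ratio.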

How the results depend on the processing

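Nerve levels rest on 2 nerves of unequal depth, and culture levels rest on few reads at many of the silent TSSs. TSSs outside the candidate table were not analysed here, and wholly silent refers to the candidate TSSs of a gene alone.

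Requiring that no culture library was above 1 RPM took 445 TSSs in place of 740, of which 30.8% were at 0 RPM in 1 nerve. A threshold of 2 RPM gave 20.7% at 0 RPM in 1 nerve and 73.0% at a gene with another active TSS. In nerve 2 alone 70.4% of the silent TSSs were under 5 RPM. The share at a gene with another active TSS was 65.8% when that TSS had to be at least 500 bp away, 67.7% when active meant above 5 RPM in 2 of 6 libraries and 69.7% when it had to be active in both models. The other alternatives stayed within the 95% interval, within the spread between the nerves (1.5 RPM for the median) or within 1.5 times the count. That spread is the SD of the medians of the 2 nerves, 1.84 and 3.96 RPM. For either nerve alone it is therefore no check, and the nerves did differ in this median. Over the 12 culture libraries left out in turn, the number of silent TSSs ran from 752 to 802. The rule still asked for 2 libraries above 1 RPM, so that the 740 all stayed and the number could not fall. Their median ran from 2.80 to 2.83 RPM and the share under 5 RPM from 85% to 86.8%. The share at 0 RPM in 1 nerve ran from 24.2% to 25.6% and the share with another active TSS from 76.3% to 77.4%.

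For cAMP, the counts of silent TSSs called higher and lower were 0 and 0 in limma. They became 8 and 4 with DESeq2, 3 and 1 with all 14 libraries in 1 fit, and 3 and 1 without the filter. With a replicate block, which treats same-numbered control and cAMP libraries as pairs, they stayed at 0 and 0, and with each library left out they were 0 and 0. For ΔSOX10 the 7 calls of lower TSSs became 3 with DESeq2, 2 with all 14 libraries, 1 at a pseudocount of 0.5, and 0 at a pseudocount of 1 and with edgeR. With each library left out there were 0 calls, and without a parental sample the 7 TSSs did not pass the filter and could not be called. TMM and median-ratio scaling gave 5. Apart from this effect of the filter, the cause of these differences was not tested. The log2 changes of the 7 were negative in every alternative in which they were tested. With reads in the parental samples alone no other sign was possible.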
